A study of Homo sapiens with 2 samples.

Results

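Integrin subunit genes were followed in single-cell RNA-seq of SK-N-BE(2)-C, an established human neuroblastoma cell line, by selecting the 10 genes named ITGB1, ITGB5, ITGB8, ITGA1, ITGA2, ITGA3, ITGA4, ITGA5, ITGA6 and ITGAV from the 36027 genes of the deposited table. The cells carried the pIND-HRASV12 construct, from which doxycycline is meant to switch on a constitutively active mutant of the small GTPase HRAS. One library came from cells kept with 100 ng/ml doxycycline for 13 days (induced) and the other from untreated cells of the same line kept for the same time (control). The labels do not say whether the line is 1 clone, and no culture with doxycycline but without the mutant was analysed here, so the drug and HRASV12 cannot be told apart. There was 1 library per group. The spread between cultures is therefore unknown, no test between the groups was possible, and every interval below is a 95% interval for counting error only.

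The induced library held 666 cells and 80359736 counts, and the control library 956 cells and 95350640 counts, with no cell barcode shared. HRAS had levels of 161 CPM (counts scaled to the total of the library) with doxycycline and 109 CPM without. The labels do not say whether these counts include the introduced copy. Any such counts cannot be separated from those of the cells' own gene. Markers of adrenergic neuroblasts summed to 2579 CPM with doxycycline and 3165 CPM without, with 8 of 10 at 10 CPM or more. None of 6 immune markers reached 10 CPM, and they summed to 2.84 and 1.94 CPM. The endothelial list summed to 89.8 CPM with doxycycline and 108 CPM without, with 3 of 11 genes at 10 CPM and VWF and CLDN5 under 1 CPM. Most of that sum was EGFL7, at 53.4 CPM with doxycycline and 96.4 CPM without. EGFL7 and CLDN5 were lower with doxycycline and the other genes of the list higher, VWF with an interval that spans 1. Among them, EMCN was at 11.4 against 2.03 CPM and ESAM at 10.7 against 3.22 CPM. The induced library also had more cells with few mitochondrial counts, its 5th percentile being 1.44% against 8.52% in the control library. The part of these differences in the integrin values was not tested beyond the subsets of cells given below.

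Integrins are receptors made of 1 alpha and 1 beta subunit that tie the actin cytoskeleton to the extracellular matrix and signal in both directions across the membrane. The beta subunit ITGB1 pairs with many alphas, and the alpha decides the ligand: ITGA1 and ITGA2 give collagen receptors, ITGA3 and ITGA6 laminin receptors, ITGA5 the classical fibronectin receptor and ITGA4 a receptor for fibronectin and VCAM1. ITGAV also pairs with ITGB5, a vitronectin receptor, and with ITGB8, which binds latent TGF-beta. The subunits assemble in the endoplasmic reticulum, and RNA counts do not show which pairs reached the surface.

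Of the 10 genes, 7 reached 10 CPM in at least 1 library and 3 did not (ITGB8, ITGA4 and ITGA5). Among the 7, 4 were at least 1.5-fold higher in the induced library on the log2(CPM + 1) scale (ITGB1, ITGA2, ITGA3 and ITGA6), where 10.3% of the 9017 genes at that level were. ITGB5 was the 1 gene at least 1.5-fold lower, against 7.73% of all genes. The median log2 ratio of the 7 was 0.73, beside -0.04 over the 9017 genes. ITGA2 and ITGA3 reached 10 CPM only in the induced library, with 1.93 and 3.64 CPM in the control library. The floor thus let them in through the library where they were high. The count of 4 and the median therefore only describe these genes. Of all genes past 1.5-fold, 57.2% were on the higher side, a share that became 73.9% with TMM factors, 79.9% with DESeq2 size factors and 40.5% with totals free of ribosomal protein and mitochondrial genes. The same scalings moved the median of all genes to 0.08, 0.13 and -0.14, and each of the 10 integrin genes kept its side of 1.5-fold under all of them. Counting every gene with at least 1 count, 5 of the 10 were higher (ITGA5 as well), against 4.7% of genes, and 1 was lower, against 3.14%. Both shares take in genes of very low level, which cannot pass 1.5-fold on the log2(CPM + 1) scale. They are thus low for that reason too, and do not come from genes of like level.

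**Figure D1:**
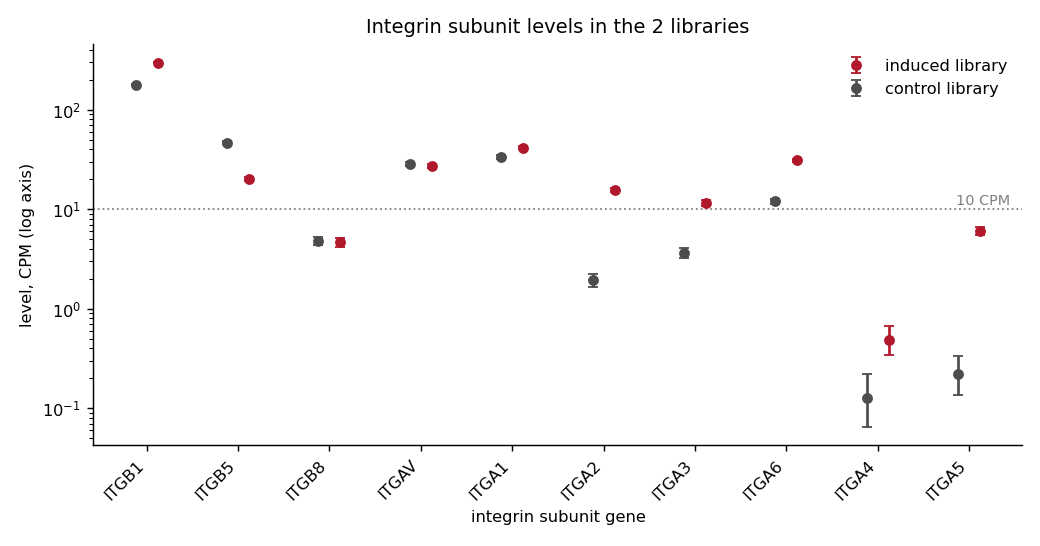
Level of each integrin subunit gene in CPM (log axis) in the induced and the control library, with exact Poisson 95% intervals for counting error, and a dotted line at 10 CPM. ITGA5 and ITGA2 show the widest gaps between the libraries, ITGB5 is lower in the induced library, and ITGB8 and ITGAV nearly coincide.

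Promoter sequences are shown for the common beta subunit and for the alpha with the widest gap, because these windows alone among the members held either of 2 motifs that were searched. RefSeq (GRCh38.p14) gave 14 windows of 300 bases around annotated starts for 9 of the 10 genes; ITGA3 had none. TGANTCA (AP-1) and GGAATG (TEAD), 2 motifs that do not overlap each other here, were looked for on both strands. TGANTCA was in 1 of the 14 windows, against 7.71% of 35116 windows of all genes, and GGAATG in 2 of 14, against 14.0%. Each sequence reads 5′ to 3′ on the strand of its gene, with matches in capitals, the first from chr10:32958181-32958480 (minus strand) and the second from chr12:54419217-54419516 (minus strand). The GGAATG match of ITGB1 begins at base -182 from the start, and in ITGA5 GGAATG begins at -82 and TGAGTCA at -6.
ITGB1: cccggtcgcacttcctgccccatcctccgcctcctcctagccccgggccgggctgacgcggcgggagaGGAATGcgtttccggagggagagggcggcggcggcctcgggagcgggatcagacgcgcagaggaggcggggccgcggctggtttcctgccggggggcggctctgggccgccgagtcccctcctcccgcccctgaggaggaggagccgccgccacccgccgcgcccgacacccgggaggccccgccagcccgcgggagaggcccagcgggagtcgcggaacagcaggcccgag
ITGA5: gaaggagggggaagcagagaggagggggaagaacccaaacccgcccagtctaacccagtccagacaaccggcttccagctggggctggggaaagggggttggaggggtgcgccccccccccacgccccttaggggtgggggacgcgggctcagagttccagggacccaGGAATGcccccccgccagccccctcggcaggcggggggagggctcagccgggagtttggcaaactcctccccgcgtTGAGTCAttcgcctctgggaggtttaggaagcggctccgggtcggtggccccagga
A match describes these letters only and shows no binding. Gene levels below are counts of 3′ molecules, not scaled for length, so a level is compared between libraries or sets of cells and not ranked between genes; the same holds for the share of each alpha in the counts of several.

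ITGB1, the shared beta subunit, had 23853 counts with doxycycline (297 CPM, 293 to 301) and 16998 without (178 CPM, 176 to 181), a ratio of 1.67 (1.63 to 1.70). Nearly every cell carried it. With each cell thinned to 53000 counts, which kept 562 induced and 766 control cells, all 562 induced and 99.9% of control cells had a count. The difference thus lay in counts per cell, with a median of 13 against 9. Cells with 20 or more ITGB1 counts made up 25.8% of the induced (22.2 to 29.6) and 3.52% of the control cells (2.34 to 5.09).

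ITGB5 was the opposite case. It stood at 20.1 CPM (19.1 to 21.1) with doxycycline and 46.8 CPM (45.4 to 48.2) without, a ratio of 0.429 (0.405 to 0.454). At equal depth 56.6% of induced cells (52.4 to 60.7) and 84.5% of control cells (81.7 to 87.0) had a count; without thinning the shares were 70.3% and 88.1%. ITGB8 stood at 4.68 CPM with doxycycline and 4.78 CPM without, a ratio of 0.978 whose interval (0.851 to 1.12) spans 1.

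The collagen-binding alphas differed from each other. ITGA1 was at 41.6 CPM with doxycycline and 33.5 CPM without, a ratio of 1.24 (1.18 to 1.30), and at equal depth it had a count in 78.8% and 77.4% of cells (86.0% and 83.3% unthinned). The PELO gene lies inside ITGA1, so counts of ITGA1 are uncertain. ITGA2 was at 15.6 CPM against 1.93 CPM, from 1255 and 184 counts, a ratio of 8.09 (6.93 to 9.50). A count of ITGA2 was found in 29.7% of induced and 10.4% of control cells at equal depth (38.9% and 15.2% unthinned), and at least 3 counts in 8.54% and 0.131%. The latter were 48 induced cells and 1 control cell. The 67 induced cells with the most ITGA2 held 72.4% of its counts, and the 67 with the most ITGA1 held 32.4% of the ITGA1 counts. In the control library the 96 richest cells, about the same share of cells, held 73.4% for ITGA2 and 31.0% for ITGA1. This concentration was thus much the same in both libraries.

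Both laminin-binding alphas were higher in the induced library. ITGA6 was at 31.1 CPM (29.9 to 32.4) against 12.1 CPM (11.4 to 12.8), a ratio of 2.58 (2.40 to 2.77), and was found in 65.5% of induced and 39.8% of control cells at equal depth (73.6% and 48.1% unthinned). ITGA3 was at 11.5 CPM against 3.64 CPM, a ratio of 3.16 (2.79 to 3.58), and was found in 29.9% and 15.9% of cells (43.1% and 26.6% unthinned). Their counts were spread differently, since the 67 induced cells richest in each held 38.7% of ITGA6 counts and 63.1% of ITGA3 counts. The 96 richest control cells held 48.4% and 54.5%. The antisense gene ITGA6-AS1 had 10 counts (induced) and 5 (control), few beside 2501 and 1151 for ITGA6, and ITGB5-AS1 had 3 and 7.

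ITGA5, the fibronectin receptor alpha, had 483 counts with doxycycline (6.01 CPM, 5.49 to 6.57) and 21 without (0.220 CPM, 0.136 to 0.337), a ratio of 27.3 (17.7 to 44.5). It was carried by few cells. At equal depth 7.30% of induced cells (5.29 to 9.77) and 0.783% of control cells (0.288 to 1.70) had a count (11.9% and 1.26% unthinned), and the 67 richest induced cells held 97.5% of the counts. The 96 richest control cells likewise held all 21 counts of their library. For scale, the leukocyte genes ITGB2 and PTPRC, which this cell type should lack, had a count in 0.178% and 7.65% of induced and 0.261% and 4.96% of control cells, kept cells having a median of 124339 and 106438 counts before thinning. Over each whole library, the control share of ITGA5 lay below that of PTPRC and the induced share was close to it. The ITGA5 share differed widely between clusters in both libraries, however, as given further on. ITGA4 was at 0.485 CPM against 0.126 CPM from 39 and 12 counts, a ratio of 3.86 (1.98 to 8.09), and its shares of 1.78% and 0.783% were likewise below that of PTPRC. ITGAV was at 27.2 CPM with doxycycline and 28.5 CPM without, a ratio of 0.955 (0.902 to 1.01), and was found in 68.9% and 71.7% of cells.

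Summed by receptor class, the 6 alphas ITGA1 to ITGA6 came to 106 CPM with doxycycline and 51.5 CPM without, a ratio of 2.07 (1.99 to 2.14). The laminin pair ITGA3 and ITGA6 summed to 42.6 against 15.7 CPM, the collagen pair ITGA1 and ITGA2 to 57.3 against 35.4 CPM, and ITGB5 with ITGB8 to 24.7 against 51.6 CPM. The make-up of the 6 alphas shifted with it. ITGA1 made up 65.1% of their counts in the control and 39.1% in the induced library, while ITGA2 went from 3.75% to 14.7% and ITGA5 from 0.428% to 5.65%. ITGA6 made up 23.4% and 29.3%.

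Pairs were then counted cell by cell at equal depth. Since nearly all cells had ITGB1, the share of cells with ITGB1 and a given alpha was set by the alpha: ITGA6 with ITGB1 was found in 65.5% of induced and 39.8% of control cells, and ITGA2 with ITGB1 in 29.7% and 10.4%. ITGAV with ITGB5 was less frequent in the induced cells, at 39.3% (35.3 to 43.5) against 61.4% (57.8 to 64.8). The product of the separate ITGAV and ITGB5 shares was 39.0% and 60.5%, so the counted pair followed the shares of its parts. ITGAV with ITGB8 was found in 15.8% and 14.5% of cells and ITGAV with ITGB1 in 68.9% and 71.7%, with overlapping intervals.

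**Figure D2:**
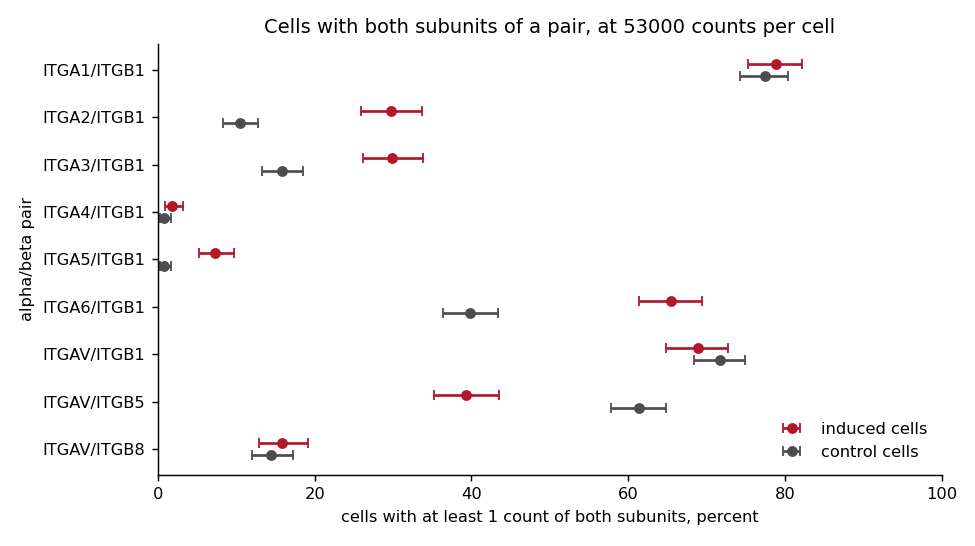
Percent of cells with at least 1 count of both subunits of each alpha/beta pair, in 562 induced and 766 control cells thinned to 53000 counts, with exact Clopper-Pearson 95% intervals. The ITGB1 pairs of ITGA2, ITGA3, ITGA5 and ITGA6 lie further right in the induced cells, and ITGAV/ITGB5 lies further left.

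Single induced cells also carried more kinds of alpha. At least 2 of the 6 alphas were counted in 68.1% of induced cells (64.1 to 72.0) and 44.8% of control cells (41.2 to 48.4), and at least 4 in 13.3% and 0.914%. The median was 2 kinds against 1. Of the 41 induced cells with ITGA5, 87.8% (73.8 to 95.9) also had ITGA2, against 25.1% (21.5 to 29.1) of the 521 without it. For ITGA6 the shares were 58.5% and 66.0%, with overlapping intervals. Of the 41 cells with ITGA5, 26 lay in cluster 6 and 12 in cluster 8 of the clusters described below. Among all 43 thinned induced cells of cluster 6, 79.1% (64.0 to 90.0) had ITGA2. Whether ITGA5 and ITGA2 go together within a cluster was not tested. Across the 562 induced cells, which share 1 library and 1 depth, Pearson's r was 0.56 between ITGA2 and ITGA5, 0.44 between ITGA2 and ITGA3 and -0.03 between ITGA5 and ITGA6. In the 766 control cells those values were 0.01, 0.03 and 0.01, at much lower counts of ITGA2 and ITGA5. With ITGB1, r in induced and control cells was 0.49 and 0.25 for ITGA3, 0.42 and 0.01 for ITGA2, 0.45 and 0.15 for ITGAV, and 0.21 and 0.22 for ITGA6. The order of the alphas was another by ranks (Spearman). The rank values were 0.31 and 0.10 for ITGA3, 0.38 and -0.03 for ITGA2, 0.26 and 0.12 for ITGAV, and 0.30 and 0.23 for ITGA6.

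All 1622 cells were grouped into 9 clusters from their RNA, so levels by cluster describe where the integrin counts lay and test nothing. Cluster 6 (52 induced and 18 control cells) held 80.1% of the ITGA5 counts of the induced library, 37.7% of those of ITGA2, 25.6% of ITGA3 and 15.9% of ITGB1. Cluster 8, with 178 induced cells, held 17.0%, 34.5%, 34.8% and 31.6% of these, and cluster 2, with 180, held 2.07%, 19.4%, 25.1% and 29.0%. The induced cells of cluster 6 stood at 80.3 CPM ITGA5, 98.2 CPM ITGA2 and 785 CPM ITGB1. It was also the cluster with the most endothelial-marker RNA (674 CPM summed) and mesenchymal-marker RNA (5402 CPM) and the least adrenergic RNA (909 CPM), and ITGA5 was among its 10 leading genes with CD93, COL4A1, MMP1 and EMCN. It is given no cell type name. The 18 control cells of cluster 6 held 13 of the 21 ITGA5 counts of their library, in 5 cells (27.8%, 9.69 to 53.5), against 0 of 306 control cells of cluster 1 and 1 of 316 of cluster 4. Without thinning, a count of ITGA5 was found in 36 of the 52 induced cells of cluster 6, in 32 of 178 of cluster 8, in 7 of 180 of cluster 2 and in 1 of 79 of cluster 7. None of the 91 induced cells of cluster 1 had one. Median depth was 88210 counts per induced cell in cluster 6, 150857 in cluster 8 and 60093 in cluster 1.

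Clusters 2 and 7 held 180 and 79 induced cells and 2 and 3 control cells. In their induced cells ITGA6 stood at 48.9 and 53.8 CPM and ITGA5 at 0.507 and 0.0898 CPM. ITGA6 made up 39.2% and 45.4% of the counts of the 6 alphas there and 11.6% in the induced cells of cluster 6. ITGA1 made up 40.8% and 43.8% in clusters 2 and 7 and 20.3% in cluster 6. The share of ITGA2 was 9.93% and 5.84% against 28.8% in cluster 6, and that of ITGA5 0.407% and 0.0758% against 23.6%. Cluster 8 (178 induced and 4 control cells), with the most ANXA1 and a median of 6.70% mitochondrial counts, had 17.8 CPM ITGA6 and 261 CPM ITGB1.

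**Figure D3:**
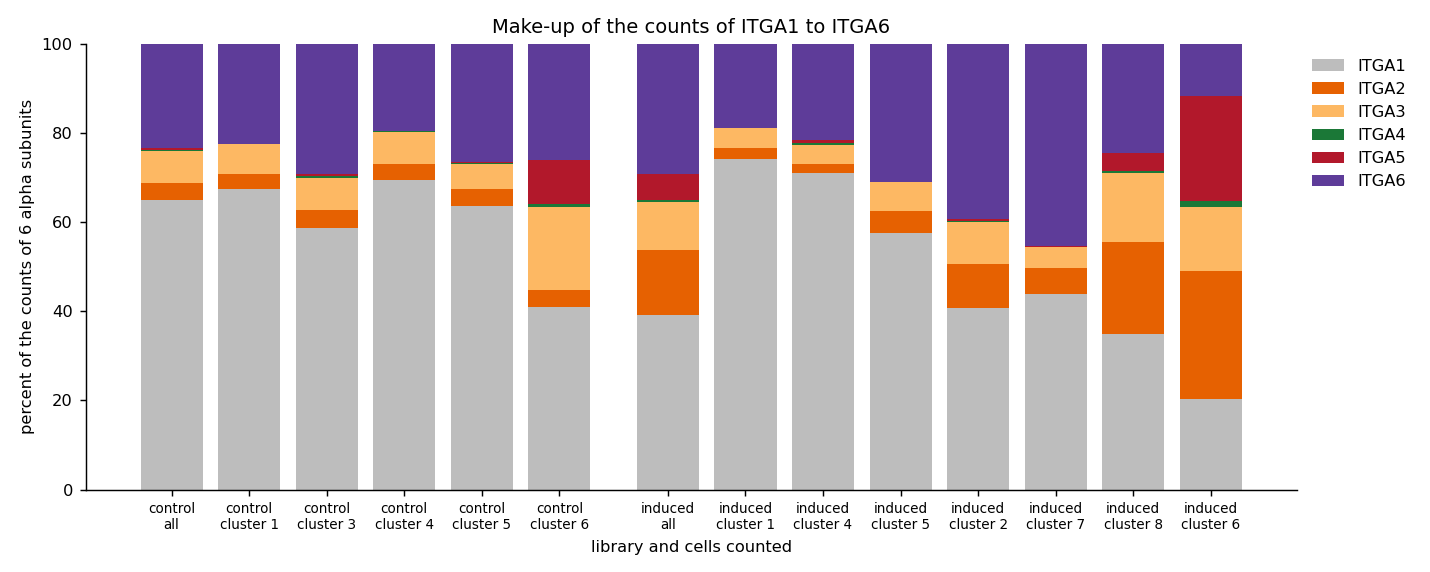
Make-up of the counts of ITGA1 to ITGA6, in percent, for each library and for clusters within it; each bar adds to 100%. The share of ITGA1 is 65.1% in the control and 39.1% in the induced library, that of ITGA6 is larger in induced clusters 2 and 7 than in induced cluster 6, and those of ITGA2 (28.8%) and ITGA5 (23.6%) are larger in induced cluster 6 than in the whole library.

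Clusters 1, 4 and 5 held at least 20 cells of each library, 159 induced and 789 control cells in all, a limit chosen after the data were seen. Within them the ratio of ITGB1 was 0.944 (0.903 to 0.986), that of ITGA2 0.958 (0.604 to 1.46) and that of ITGA3 0.938 (0.672 to 1.28). ITGA6 was at 1.25 (1.07 to 1.46) and ITGA1 at 1.31 (1.20 to 1.42). The higher levels of ITGB1, ITGA2 and ITGA3 were thus not seen among the induced cells of clusters 1, 4 and 5. ITGB5 was lower there too, at 0.665 (0.600 to 0.735), with 0.602 in cluster 1, 0.566 in cluster 4 and 0.914 (0.765 to 1.09) in cluster 5. ITGAV was at 0.787 (0.697 to 0.885). Since the clusters were made from the RNA itself, induced and control cells of 1 cluster are alike in RNA. These ratios therefore describe such cells and test nothing. Cluster 6 also mixed the libraries, but its 18 control cells were under the limit of 20. In that cluster the induced and control cells stood at 785 and 348 CPM for ITGB1 and 98.2 and 3.43 CPM for ITGA2. ITGA3 stood at 49.2 and 17.1 CPM and ITGA5 at 80.3 and 8.91 CPM.

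Leaving out cluster 6 lowered the ratio of ITGA5 from 27.3 to 14.9 (96 and 8 counts) and that of ITGA2 from 8.09 to 5.43. Without clusters 6 and 8 the ratio of ITGA5 was 3.51 (1.37 to 9.65), from 14 and 8 counts, and that of ITGA2 3.91 (3.26 to 4.71). ITGA3 was then at 2.28, ITGA6 at 3.23, ITGB1 at 1.53 and ITGB5 at 0.444. Of the 10 genes, ITGA5 had the ratio that moved most when both clusters were left out, while ITGB5 moved little and ITGA6 came out higher than in all cells. Clusters 6 and 8 held 80.1% and 17.0% of the induced ITGA5 counts, so its move restates where those counts lay and tests nothing. Among cells called G1, 412 induced and 225 control, the ratios were 10.7 for ITGA2, 1.84 for ITGA6, 1.64 for ITGB1 and 0.382 for ITGB5.

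**Figure D4:**
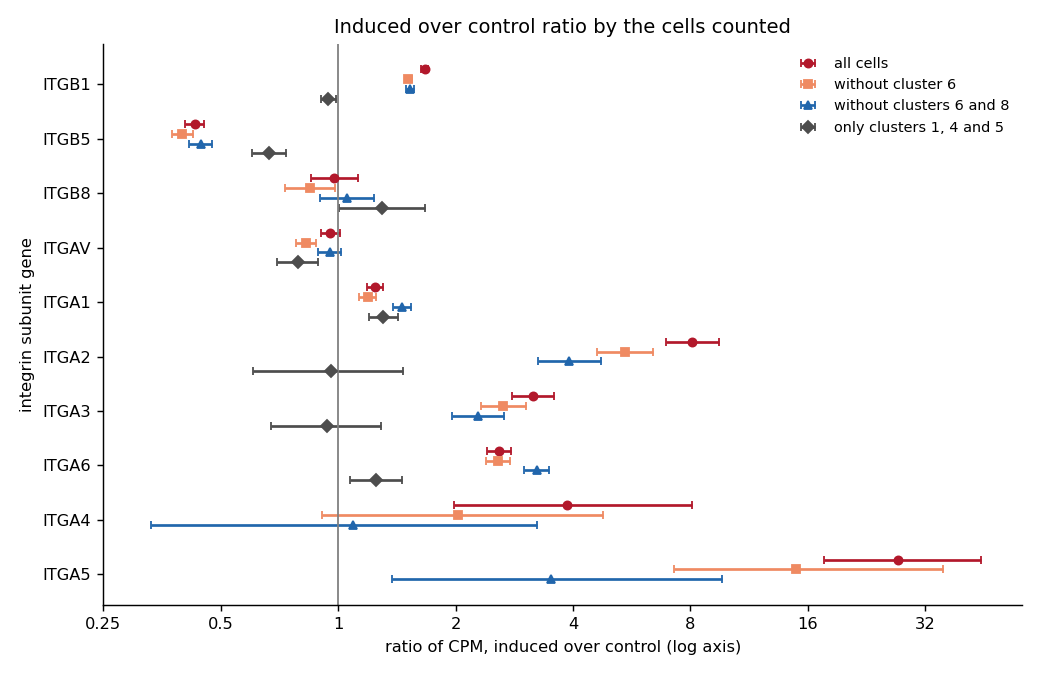
Ratio of CPM, induced over control (log axis), for each integrin subunit gene in all cells, without cluster 6, without clusters 6 and 8, and in clusters 1, 4 and 5 only, with exact conditional 95% intervals; ratios with under 5 counts in either library are not drawn. ITGB5 lies left of 1 in each of the 4 sets of cells, while ITGB1, ITGA2 and ITGA3 lie near 1 only when clusters 1, 4 and 5 are counted alone.

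Cells were also ordered by VIM, vimentin of mesenchymal intermediate filaments, which stood at 1510 CPM with doxycycline and 182 CPM without, and cut into 4 groups of equal size within each library. From the lowest to the highest VIM group of induced cells, ITGB1 was at 178, 249, 294 and 524 CPM. ITGA2 went from 1.20 to 6.29, 12.3 and 46.4 CPM, and ITGA3 from 2.94 to 8.03, 10.9 and 27.2 CPM. ITGA6 was at 16.2, 30.1, 37.5 and 52.4 CPM. ITGA5 was at 0.134, 1.07, 2.56 and 18.9 CPM and ITGAV at 21.1, 22.3, 28.2 and 50.4 CPM. These 6 genes had a higher level in each higher VIM group, though intervals of some neighbouring groups overlap. For ITGAV the 2 lowest groups had 158 and 167 counts. The highest group held 38 cells of cluster 6. The induced cells outside that cluster were cut anew into 4 groups, with 130 cells in the lowest and 129 in the highest. The new groups thus hold other cells than the first ones. The new highest group stood at 25.2 CPM for ITGA2, 16.8 CPM for ITGA3, 2.05 CPM for ITGA5, 32.6 CPM for ITGAV and 400.3 CPM for ITGB1. The ratio of the highest to the lowest group was then 21.7 (10.8 to 51.0) for ITGA2 in place of 38.5, and 5.52 (3.45 to 9.25) for ITGA3 in place of 9.25. Without cluster 6 the order broke for ITGA5, at 0.145, 0.871, 0.435 and 2.05 CPM from 1, 6, 3 and 14 counts. ITGA1 differed little, from 43.1 CPM in the lowest to 51.9 CPM in the highest group. ITGB5 was at 28.1, 16.7, 15.9 and 26.4 CPM, and at 15.9 CPM in the highest of the groups cut anew without cluster 6. ITGB1 in the lowest induced group (178 CPM) was within the range of the control groups, 154 to 226 CPM. In the control library ITGA6 went from 9.43 to 20.7 CPM and ITGA3 from 2.36 to 7.71 CPM, and ITGA2 was at 2.46 and 2.67 CPM. Control cells with equal VIM counts were split between neighbouring groups, with counts of 0 in both of the 2 lowest.

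**Figure D5:**
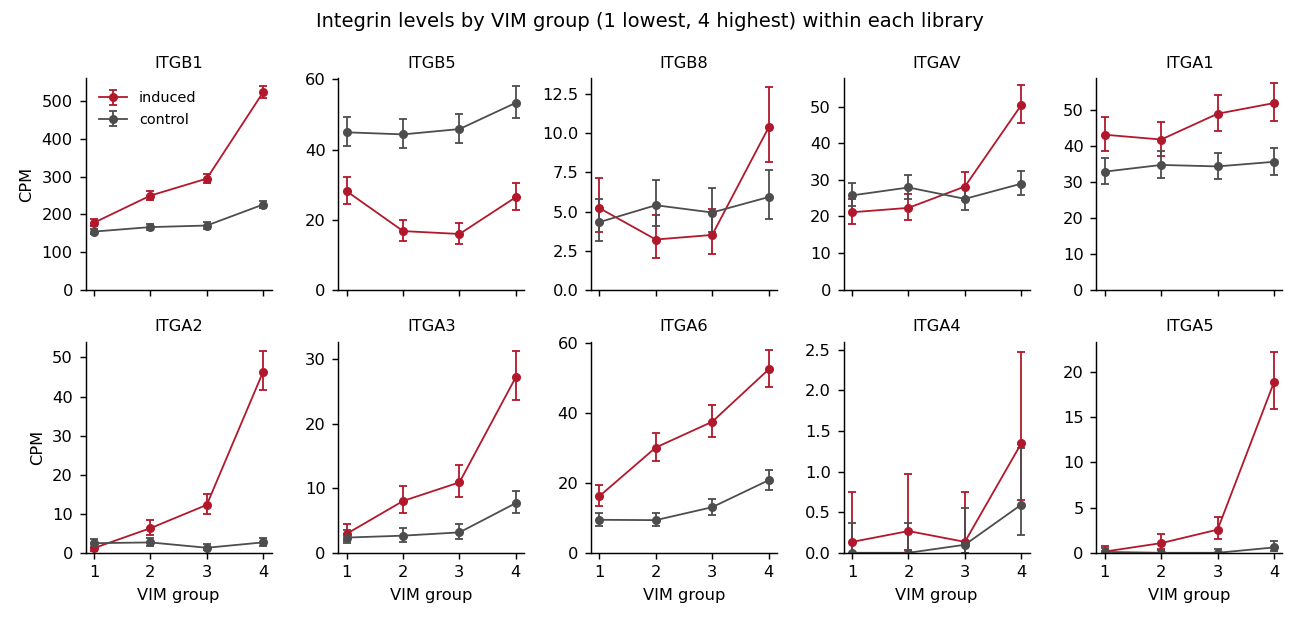
Level in CPM (linear axes, 1 panel per gene) by VIM group (1 lowest, 4 highest) within the induced and the control library, in cells thinned to 53000 counts, with exact Poisson 95% intervals. ITGB1, ITGA2, ITGA3, ITGA5, ITGA6 and ITGAV climb across the induced groups, ITGA1 is nearly flat, and ITGB5 is lower in induced than in control cells in all 4 groups.

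Levels in cells of different cell cycle calls and HRAS counts were set side by side. In the 360, 138 and 64 induced cells called G1, G2M and S, ITGA2 was at 21.7, 7.52 and 6.49 CPM and ITGB1 at 346, 262 and 221 CPM. ITGA6 was at 35.1, 34.5 and 26.8 CPM. The libraries differed in these calls, with 165, 349 and 252 control cells. By HRAS counts of 0 to 3, 4 to 9 and 10 or more at equal depth, ITGA5 in induced cells was at 11.9, 5.53 and 3.32 CPM and ITGA2 at 23.8, 16.2 and 14.0 CPM. ITGA3 went the other way, at 6.98, 12.8 and 13.5 CPM, and ITGB1 was at 292, 301 and 336 CPM. These groups had 73, 307 and 182 induced cells, with 46, 90 and 32 ITGA5 counts. For ITGA5, ITGA2 and ITGA3 the intervals of the middle and upper groups overlap, and for ITGB1 those of the lower and middle groups. The part of cluster 6, which held 80.1% of the induced ITGA5 counts, in these levels was not tested. HRAS counts include the cells' own gene, and whether they include the introduced copy is not known.

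The genes most like each integrin were sought among 5173 genes with at least 25 CPM in the induced library, by Pearson's r across the 562 induced cells. Here r was taken on log-transformed thinned counts. The r values between members given earlier used untransformed counts, so they are not on the same scale. VIM (0.57), PRSS23 (0.56) and CDH2 (0.56) were most like ITGB1. PRSS23, a secreted serine protease, also led for ITGA2 (0.57) and for ITGA3 (0.53). In the 766 control cells r with PRSS23 was 0.17 for ITGB1, 0.08 for ITGA2 and 0.17 for ITGA3. ITGAV was most like MYH9 (0.36), FLNA (0.36) and TPM1 (0.35), all parts of the actin cytoskeleton, and ITGA6 most like ANXA2 (0.37). For ITGB5 and ITGA1 the closest genes, CNN3 and CCND1, reached 0.27 and 0.32.

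Other genes of integrin adhesion were described from lists set beside the members. Of 14 further integrin subunits in the table, 2 reached 10 CPM and neither was past 1.5-fold: ITGA11 was at 14.6 against 10.9 CPM and ITGAE at 164 against 141 CPM. Of 37 genes of the adhesion complex, which links integrin tails to actin, 25 reached 10 CPM, 8 were higher and 1 lower, with a median log2 ratio of 0.33; 12 were higher with TMM or DESeq2 scaling and 7 with totals free of ribosomal protein and mitochondrial genes. Zyxin (ZYX) was at 68.8 against 15.1 CPM and TGFB1I1 at 71.4 against 20.5 CPM. KANK2 was the lower one, at 7.07 against 16.4 CPM, and focal adhesion kinase (PTK2) was at 58.0 against 71.7 CPM.

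Of 32 matrix ligands, 10 reached 10 CPM, 5 were higher and none lower, with a median log2 ratio of 0.61. FN1, the fibronectin bound by ITGA5 with ITGB1, was at 79.9 against 14.2 CPM, CCN2 at 10.1 against 0.0629 CPM and COL5A1 at 10.6 against 3.23 CPM. Among these 10, the lowest ratio was that of FBLN1, at 39.0 against 52.5 CPM, followed by COL6A1 at 18.4 against 21.3 CPM. Without cluster 6, 3 of 7 ligands were higher. Of 9 genes around TGF-beta activation, in which ITGAV receptors take part, 4 reached 10 CPM and 2 were higher, among them TGFB1 at 90.3 against 48.8 CPM. Without clusters 6 and 8, none of the 3 measured was higher.

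Of 16 membrane partners of integrins, 13 reached 10 CPM, 7 were higher and none lower, with a median log2 ratio of 0.63. PLAUR, the urokinase receptor, was at 19.3 against 2.76 CPM, the galectin LGALS1 at 1947 against 644 CPM, and CD151, a tetraspanin that binds laminin-binding integrins, at 120 against 44.8 CPM. CD81 was at 297 against 295 CPM and EGFR at 48.7 against 57.8 CPM. The shares of these lists stand beside 10.3% higher and 7.73% lower among all genes at that level. Some listed genes reached 10 CPM only in the library where they were high, among them CCN2, COL5A1 and PLAUR (induced) and KANK2 (control).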

How the data were processed

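Each library was a 10x Genomics Chromium 3′ library of 1 culture, per the labels. Counting used kallisto and bustools, per the submitters' processing notes; their versions, the genome build, the annotation and the cell filters: not given in the sources used here. Raw counts of molecules for each gene in each cell were deposited. The authors also deposited the percent of mitochondrial counts of each cell, per the file headers. Their annotation names the library of each of the 1622 cells and marks all as singlets, so no doublet caller was run. Counts of near-identical genes are uncertain with such counting.

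CPM is the summed count of a library divided by its total. Log2 ratios used a pseudocount of 1 CPM, which makes differences of low genes look smaller. A gene was called higher or lower past 1.5-fold on that scale with at least 10 CPM in either library. Cells of 1 library are not replicates, so nothing was tested across them. Intervals, for counting error only, are exact Poisson (levels), exact conditional (ratios) and Clopper-Pearson (shares), at 95%. A count of 0 allows up to 3 counts (0.0373 CPM induced, 0.0315 CPM control). Per-cell values used cells thinned to 53000 counts, which left out 104 induced and 190 control cells. Clusters came from scanpy 1.11.5 (2000 variable genes, 30 components, 15 neighbours, Leiden resolution 0.5). TMM factors (edgeR 4.0.16) and DESeq2 1.42.0 size factors served as alternative scalings only. The pooling and ratio steps were tested on simulated data. The members and lists were chosen with earlier results of these data known. Named by rule were all members, the 3 highest and 3 lowest measured genes of each list and the 3 genes most like each member with at least 10 CPM in the induced library; some of these are not reported here.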

Additional observations from a re-analysis of the deposited data

How the results depend on the processing

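No paired analysis was possible because each group had 1 library. Over 14 alternatives of scaling, cells and pseudocount, 8 of the 10 members kept their side of 1.5-fold in all 14. The exceptions were ITGA4, with a log2 ratio of 1.37 at a pseudocount of 0.1 CPM, and ITGA5, at 0.26 without clusters 6 and 8, an alternative chosen after seeing the data. ITGB8 ranged from -0.19 to 0.27 and ITGAV from -0.26 to 0.21, so neither has a settled sign. The number of members higher was 2 of 5 without both clusters, where ITGA2 and ITGA3 fell under 10 CPM, and 1 of 1 at a filter of 50 CPM, where 0 were lower.

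The median log2 ratio of the members was 0.84 with TMM, 0.89 with DESeq2 size factors, 0.64 with totals free of ribosomal protein and mitochondrial genes, 0.78 as a mean of per-cell CPM, 0.78 without the 5% of cells with the most counts, 0.79 with thinned cells, 0.82 under the limit on mitochondrial percent and MALAT1, 0.42 without cluster 6, 0.83 without cluster 8, 0.53 without both and 0.57 with no filter. The adhesion complex had 12 higher with TMM, with DESeq2 size factors and in G1 cells, 7 to 10 under the other settings of scaling, cells and pseudocount, 2 lower with no filter, and 3 higher and 0 lower at 50 CPM. Matrix ligands higher numbered 8 with totals free of ribosomal protein and mitochondrial genes, 8 in G1 cells, 3 without cluster 6, 2 without both, 12 with no filter and 1 at 50 CPM, with 1 lower in G1 cells and 1 with no filter. TGF-beta genes higher numbered 0 without both clusters, 4 with no filter and 1 at 50 CPM. Fewer genes were measured under the 50 CPM filter and without the clusters; otherwise the cause was not tested. With 1 library per group, depth limits only the counting error, which is widest for ITGA4 and ITGA5.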
